A study of Mus musculus with 2 samples.

Results

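Most transcripts of a T cell that are spliced encode proteins, and a small remainder does not. The genes described here are 60 spliced non-coding RNA genes of mouse CD4+ T cells, of 9656 genes with a named splice junction. Members were chosen by their annotated type and by their reads summed over both libraries. A gene belonged to the set when its type in the GENCODE mouse annotation was lincRNA, lncRNA, antisense, processed_transcript, sense_overlapping or bidirectional_promoter_lncRNA, when it was neither an Snhg gene nor Gas5, and when its junctions held at least 10 reads over both libraries. In all, 127 non-coding genes had a named junction and 67 of them held fewer reads than that. Because the reads of both libraries chose the members, levels are given as descriptions. A gene with few reads in one library entered the set only when the other library supplied them, so counts of differences within the set support nothing by themselves.

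The BD IMag magnetic kit was used to enrich CD4+ T cells from the spleens of male C57BL/6JJcl mice, 4 of which were pooled. The stimulated cells were placed for 4 h on plates coated with anti-CD3e and anti-CD28, each at 2 ug/ml, and the mock cells were kept in the same manner with no antibody. These antibodies engage the T cell receptor complex and a costimulatory receptor, and the title of the series asks about early changes. RNA was extracted with TRIzol as total RNA, and 1 library was sequenced from each group, so no difference below has a replicate check and every comparison is one of 2 libraries.

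Long non-coding RNAs are transcribed and spliced like messenger RNAs, but most of them are not known to be translated into a working protein. Some act on a neighbouring gene while they are being made, some hold nuclear structures or sequester other RNAs, and some are mainly carriers whose introns are cut into small nucleolar RNAs or microRNAs. Small nucleolar RNAs of the box C/D class guide the methylation of ribosomal RNA, and those of the box H/ACA class guide its pseudouridylation.

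The 2 libraries held 1147232 junction reads (mock) and 1341197 (stimulated). A value is the number of reads that cross a gene's named junctions, or that number per 1000000 junction reads of its library (RPM). The T cell markers were all found, with 5046 reads in the mock and 5759 in the stimulated library over 8 of 8 genes. Cd4 had 650 and 285 reads. B cell markers summed to 160 RPM in the mock and 116 in the stimulated library over 7 of 7 genes, myeloid markers to 34.0 and 29.1 over 5 of 7, and natural killer markers to 39.2 and 41.8 over 2 of 5. Of the CD8 markers Cd8b1 had 16 and 5 reads, and Cd8a, Itgam, Fcer1g, Klrb1c, Ncr1 and Nkg7 had no named junction. Whether RNA of these other cells had a part in the values below was not tested. The 60 genes took 0.192% of the junction reads in the mock library (exact 95% interval 0.184% to 0.200%) and 0.210% in the stimulated library (0.202% to 0.218%). Each interval here and below is a Clopper-Pearson interval at 95%. It accounts for nothing but counting error, and PCR makes reads that are not independent molecules. In a bulk sample, fewer cells that make an RNA and less RNA in each cell cannot be told apart.

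The label non-coding was checked against RefSeq. Of the 55 genes with a RefSeq entry, 44 were non-coding there, 10 were protein-coding and 1, Ptprv, was a transcribed pseudogene. The 10 were Cct6a, Zswim6, Ifi30, Tmem134, Ptpmt1, Trerf1, Ndufb1-ps, 1810058I24Rik, Gm37494 and D930016D06Rik, so for them the set's name goes against that source. Without them the share of reads was 0.138% in the mock and 0.121% in the stimulated library. RefSeq calls 1810032O08Rik Snhg16, 1810026B05Rik Chaserr and 1700020I14Rik Oip5os1, and the rule kept the first because the annotation does not use the Snhg name.

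8 members carry small nucleolar RNAs in their introns, and these small RNAs are shown because all 8 ratios lay above 1. By the annotation, the 7 hosts other than Epb41l4aos hold 15 such RNAs. The one in Epb41l4aos, Gm23639, was not searched for the boxes below. A box C core, searched as GATGA within the first 20 bases, together with a box D, searched as CTGA within the last 15 bases, both on the RNA's own strand, occurred in 12 of the 15 and in 21.2% of all 1507 annotated small nucleolar RNA genes. Examples from the GRCm38 annotation follow as DNA letters, 5′ to 3′, with both boxes in capitals.
Snord93, in 2700038G22Rik, chr5:23852210-23852280, plus strand: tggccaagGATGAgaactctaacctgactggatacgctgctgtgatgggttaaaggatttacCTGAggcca
Mir3096, typed as a small nucleolar RNA, in AI506816, chr5:23710991-23711061, minus strand: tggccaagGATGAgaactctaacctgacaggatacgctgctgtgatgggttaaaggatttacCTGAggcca
Snord52, in 1110038B12Rik, chr17:34950952-34951017, minus strand: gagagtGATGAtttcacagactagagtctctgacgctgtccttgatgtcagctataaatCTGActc
Snord1b, in 1810032O08Rik (Snhg16), chr11:116674148-116674222, plus strand: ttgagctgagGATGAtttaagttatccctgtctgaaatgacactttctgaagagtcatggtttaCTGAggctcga
Snord12, in Zfas1, chr2:167065276-167065365, plus strand: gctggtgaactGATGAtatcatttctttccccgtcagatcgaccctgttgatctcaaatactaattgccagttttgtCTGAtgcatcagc
Snord49a, in 2410006H16Rik, chr11:62603450-62603521, plus strand: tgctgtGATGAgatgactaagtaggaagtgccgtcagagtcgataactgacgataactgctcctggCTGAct
The first 2 sequences differ at 1 of 71 bases, A29T, counted from 1 at the 5′ end of the RNA in AI506816. Their hosts are near copies of each other on opposite strands of chromosome 5: 347 aligned bases of their transcripts were 95.4% identical. Reads may have been split or exchanged between them, so each gene's own value is uncertain.

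The copying extends to the start sites, and the matching stretch is shown because both genes were higher in the stimulated library. It runs over 179 bases of the RefSeq promoters (GRCm38.p6), ends at or 1 base before the promoter window's last base, and differs at 2 positions, T130A and A168C, counted from 1 at the first base shown, with AI506816 first. The capitals mark them.
AI506816, chr5:23712618-23712796, minus strand: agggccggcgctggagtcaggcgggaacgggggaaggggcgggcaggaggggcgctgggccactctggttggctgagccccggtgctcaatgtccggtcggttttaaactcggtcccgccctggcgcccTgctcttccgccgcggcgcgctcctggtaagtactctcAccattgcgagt
2700038G22Rik, chr5:23850467-23850645, plus strand: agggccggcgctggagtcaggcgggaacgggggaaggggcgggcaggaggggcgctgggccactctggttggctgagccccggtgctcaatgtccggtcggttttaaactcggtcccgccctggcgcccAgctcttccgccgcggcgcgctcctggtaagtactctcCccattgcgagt
Upstream of this stretch the promoters differ more, and over the whole window 292 aligned bases held 38 substitutions, with 8 gaps.

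A gene that held 20 reads or more, both libraries summed, was called higher or lower in the stimulated library when the ratio of RPM was at least 2-fold and its interval excluded 1. Of all 7130 genes with 20 reads, 17.0% were higher and 25.1% lower. Of the non-coding genes 41 had 20 reads, and 9 of them (22.0%) were higher, 11 (26.8%) lower and 21 neither. These shares lie near those of all genes. The median log2 ratio of the 60 genes was -0.49, with quartiles of -1.57 and 0.98, beside -0.23 for all 8066 genes with 10 reads or more, where a gene with 0 reads in a library is taken at 3 reads there. 25 ratios lay above 1 and 35 below. Scaling by the median of ratios or by the trimmed mean of M values moves every log2 ratio up by 0.23 or 0.24, and the members then split into 11 higher and 10 lower under either. Among all genes called, the share that was higher is 40.3% with totals, 51.6% with the median of ratios and 52.5% with the trimmed mean.

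**Figure D1:**
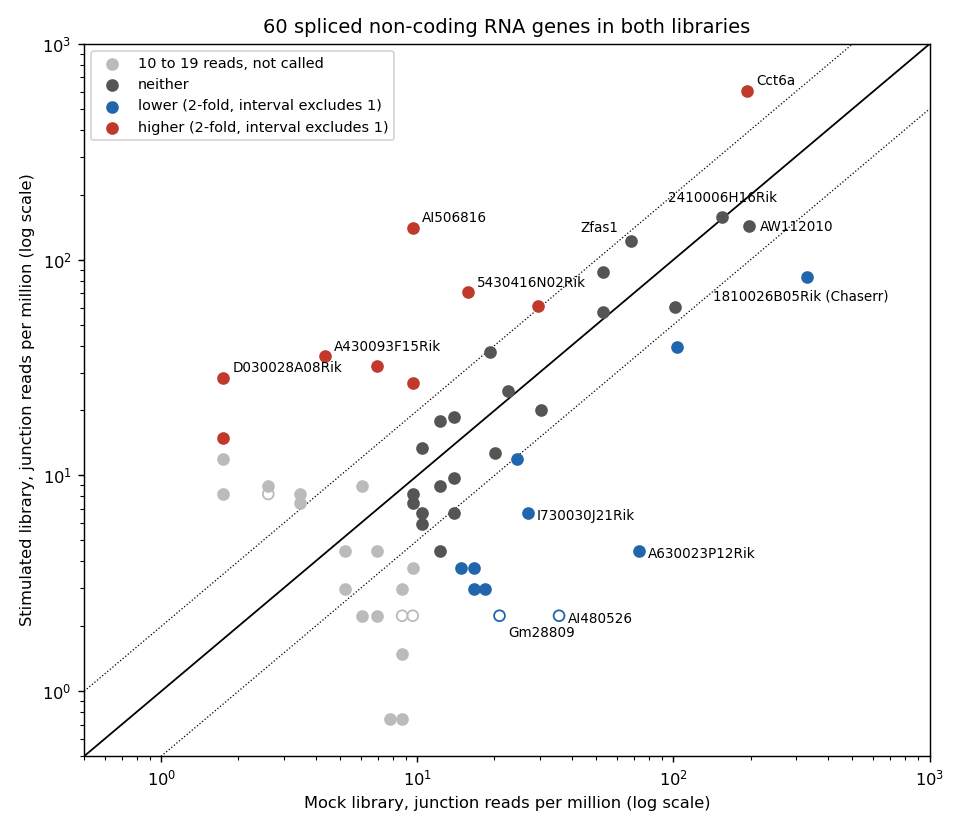
Junction RPM of the 60 genes in the mock library (x axis) and the stimulated library (y axis), both on log scales, with equality as a solid line and 2-fold differences as dotted lines. Open circles mark genes with 0 reads in a library, drawn at 3 reads there, and genes with 1 or 2 reads lie lower than that. Cct6a and Chaserr, the 2 genes with most reads, lie on opposite sides of the line.

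Among the hosts of small nucleolar RNAs, a group assembled after values had been seen, 5 of 8 were higher (62.5%) and none was lower. Of all genes with 20 reads, 17.0% were higher and 25.1% lower. Together the 8 hosts held 562 reads in the mock and 1551 in the stimulated library, and their median log2 ratio was 1.26. Cct6a, coding in RefSeq, supplied 222 and 815 of these reads. AI506816, on chr5:23216227-23218459 in mm9, minus strand (the span of its named introns), had 11 mock and 189 stimulated reads, a 14.7-fold difference (interval 8.03 to 29.9). Both of its junctions took part, with 5 and 92 reads at the first and 6 and 97 at the second. Its copy 2700038G22Rik, on chr5:23356440-23358535, plus strand, had 2 and 20 reads, 8.55-fold (2.08 to 75.5). Summed, the pair had 13 and 209 reads, 13.8-fold (7.87 to 26.3). The sum removes the doubt about reads exchanged between the copies, but not about reads placed at both or left out. The coding gene nearest to AI506816, the splicing factor kinase Srpk2 on the same strand, went the other way, with 204 and 61 reads.

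Cct6a, which in RefSeq encodes a subunit of the cytosolic chaperonin that folds actin and tubulin and which hosts the box H/ACA RNA Snora15, had the most reads of the set. It lies on chr5:130293452-130321623, plus strand, and held 222 mock and 815 stimulated reads, 194 and 608 RPM. The ratio was 3.14 (2.70 to 3.66), and all 11 junctions had more RPM in the stimulated library. 1110038B12Rik, the host of Snord52, had 34 and 82 reads, a ratio of 2.06 (1.37 to 3.17), with all 4 junctions higher. 1810032O08Rik (Snhg16) had 11 and 36 reads, a ratio of 2.80 (1.39 to 6.10).

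The other 3 hosts were called neither higher nor lower. Zfas1, on chr2:166888798-166891186, plus strand, had 78 and 164 reads, a ratio of 1.80 (1.37 to 2.39), and was called higher when libraries were scaled by the median of ratios or the trimmed mean. 2410006H16Rik, host of Snord49a, Snord49b and Snord65, had 178 and 212 reads, and its ratio of 1.02 (0.831 to 1.25) excludes a 2-fold difference by counting error alone. Epb41l4aos had 26 and 33 reads, 1.09 (0.630 to 1.89). The ratios of the 8 hosts thus ran from 1.02 to 14.7, and they were not alike.

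In Zfas1 the first and last junctions had separate intervals, which hold counting error only. The first 2 junctions of Zfas1 had 43 mock and 125 stimulated reads, a ratio of 2.49 (1.75 to 3.60), and the last 2 had 35 and 39, a ratio of 0.953 (0.588 to 1.55). In Snhg16 the first 2 junctions had 4 and 28 reads, 5.99-fold (2.09 to 23.5), and the other 3 had 7 and 8, a ratio of 0.978 (0.310 to 3.17). These 2 intervals overlap, so a difference along Snhg16 was not detectable at this depth. Ifi30, a lysosomal thiol reductase in RefSeq that hosts no small RNA, showed the clearest contrast. Its first junction had 21 and 56 reads, 2.28-fold higher (1.36 to 3.97), while the remaining 4 had 40 and 21, a ratio of 0.449 (0.252 to 0.780), so that its sum of 61 and 77 reads hid opposite differences. These splits were chosen after the junction values had been seen. The junctions of a gene varied 2.04 times as much as counting error gives over 4848 genes, and the intervals of these splits were not widened for that. Whether the ratio differed along Zfas1 or Ifi30 beyond that spread was not tested.

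**Figure D2:**
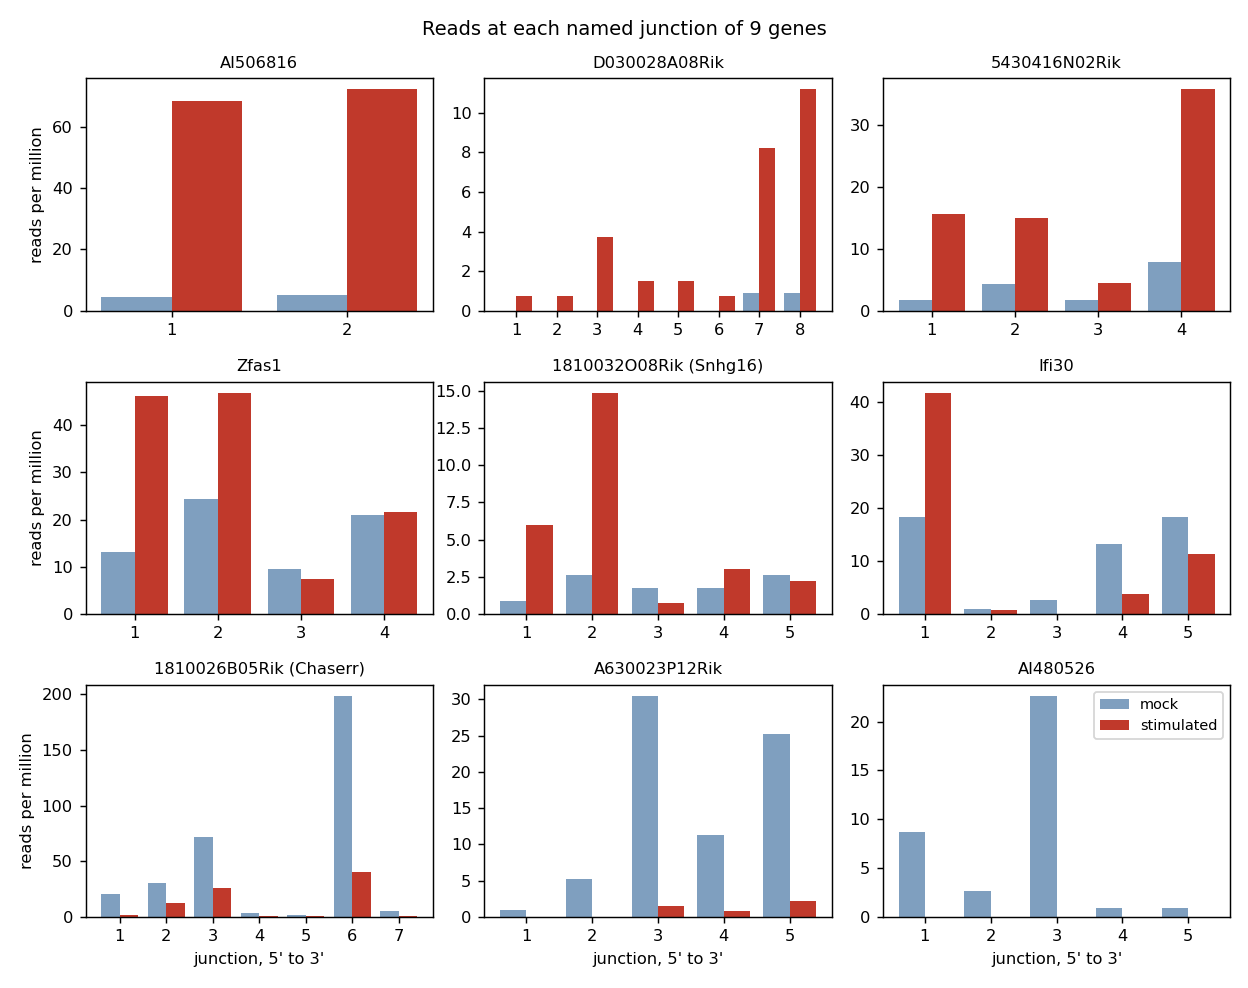
RPM at each named junction, numbered 5′ to 3′ along the gene, in the mock (blue) and stimulated (red) library for 9 genes, on a linear scale that differs between panels. Zfas1 has more stimulated reads mainly at its first 2 junctions, and Ifi30 has more at its first junction and fewer at the others, whereas the junctions of AI506816 and Chaserr all differ in 1 direction.

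Among members that host no small RNA, 4 were higher (12.5%) and 11 lower (34.4%) of 32 with 20 reads, beside 17.0% and 25.1% of all genes. D030028A08Rik, on chr11:96805529-96824884, plus strand, had 2 mock and 38 stimulated reads, 16.3-fold (4.20 to 139). All 8 of its junctions were higher in the stimulated library, although 6 of them had no mock read. In the annotation it overlaps the coding gene Prr15l on the same strand. 5430416N02Rik, an intergenic RNA on chr5:100849992-100858344, minus strand, had 18 and 95 reads, 4.51-fold (2.71 to 7.94), with 4 of 4 junctions higher. Its nearest coding gene Sec31a, part of the coat of vesicles leaving the endoplasmic reticulum, had 385 and 478 reads, a ratio of 1.06 (0.927 to 1.22).

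A430093F15Rik, on chr19:10815493-10860267, plus strand, had 5 and 48 reads, 8.21-fold (3.29 to 26.4). Its nearest coding gene is Cd5, a receptor that dampens T cell receptor signals, which lies 1945 bp away on the other strand in GRCm38 and had 766 and 1743 reads, a ratio of 1.95 (1.79 to 2.12). 4930417O13Rik, on chr6:125216088-125235637, plus strand, had 8 and 43 reads, 4.60-fold (2.14 to 11.3), with 5 of 6 junctions higher.

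The lower genes were led by RNAs with few or no reads in the stimulated library. A630023P12Rik, an intergenic RNA on chr5:110950305-110954622, plus strand, had 84 mock and 6 stimulated reads, 73.2 and 4.47 RPM. It was 16.4-fold lower (7.21 to 45.9), and all 5 junctions were lower. AI480526, on chr5:123584440-123589877, minus strand, had 41 reads over 5 junctions in the mock and 0 in the stimulated library. Taken at 3 reads, or 2.24 RPM, in place of 0, AI480526 was 16.0-fold lower, and the limit of the exact interval was 12.4-fold. Gm28809, on chr6:125431493-125434294, plus strand, had 24 and 0 reads. Taken the same way it was 9.35-fold lower, with 7.04-fold as the limit of the interval.

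1810026B05Rik (Chaserr) had the second most reads of the set. This RNA starts upstream of Chd2, a chromatin remodeller, and is known to lower the expression of Chd2 from the same chromosome. In the annotation it overlaps Chd2 on the same strand. It lies on chr7:80689269-80702924, minus strand, and had 380 mock and 111 stimulated reads, 331 and 82.8 RPM, a 4.00-fold difference (3.23 to 4.99). All 7 junctions were lower, and the most-read one had 228 and 54 reads. Chd2, chosen for comparison after its value was seen, had 768 and 514 reads, a ratio of 0.572 (0.511 to 0.641). Chd2 did not pass the 2-fold limit, and the intervals of the pair do not overlap.

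7 more genes were lower, with fewer reads. Tmem134, coding in RefSeq, had 118 and 53 reads and was 2.60-fold lower (1.87 to 3.67), with 8 of 8 junctions lower. Gm30054 had 21 and 4 reads, 6.14-fold lower (2.07 to 24.6), and Gm20275 had 19 and 4, 5.55-fold (1.85 to 22.4). 4933439C10Rik had 19 and 5 reads and 4930481A15Rik 17 and 5, 4.44-fold (1.60 to 15.2) and 3.97-fold lower (1.41 to 13.8). These 4 genes lie antisense to coding genes and rest on few reads. Of the reads of Gm30054, 23 of 25 came from 1 junction, and of those of Gm20275, 20 of 23. Without that junction neither keeps the 20 reads needed for a call, so the loss of both calls was fixed in advance. I730030J21Rik had 31 and 9 reads, but 37 of the 40 came from 1 junction. Its other junction held 1 and 2 reads, too few for the log2 ratio of 0.77 there, in place of -2.01, to give a direction. Mirt1, named for myocardial infarction, had 28 and 16 reads, 2.05-fold lower (1.07 to 4.05), and lost the call under both other scalings.

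**Figure D3:**
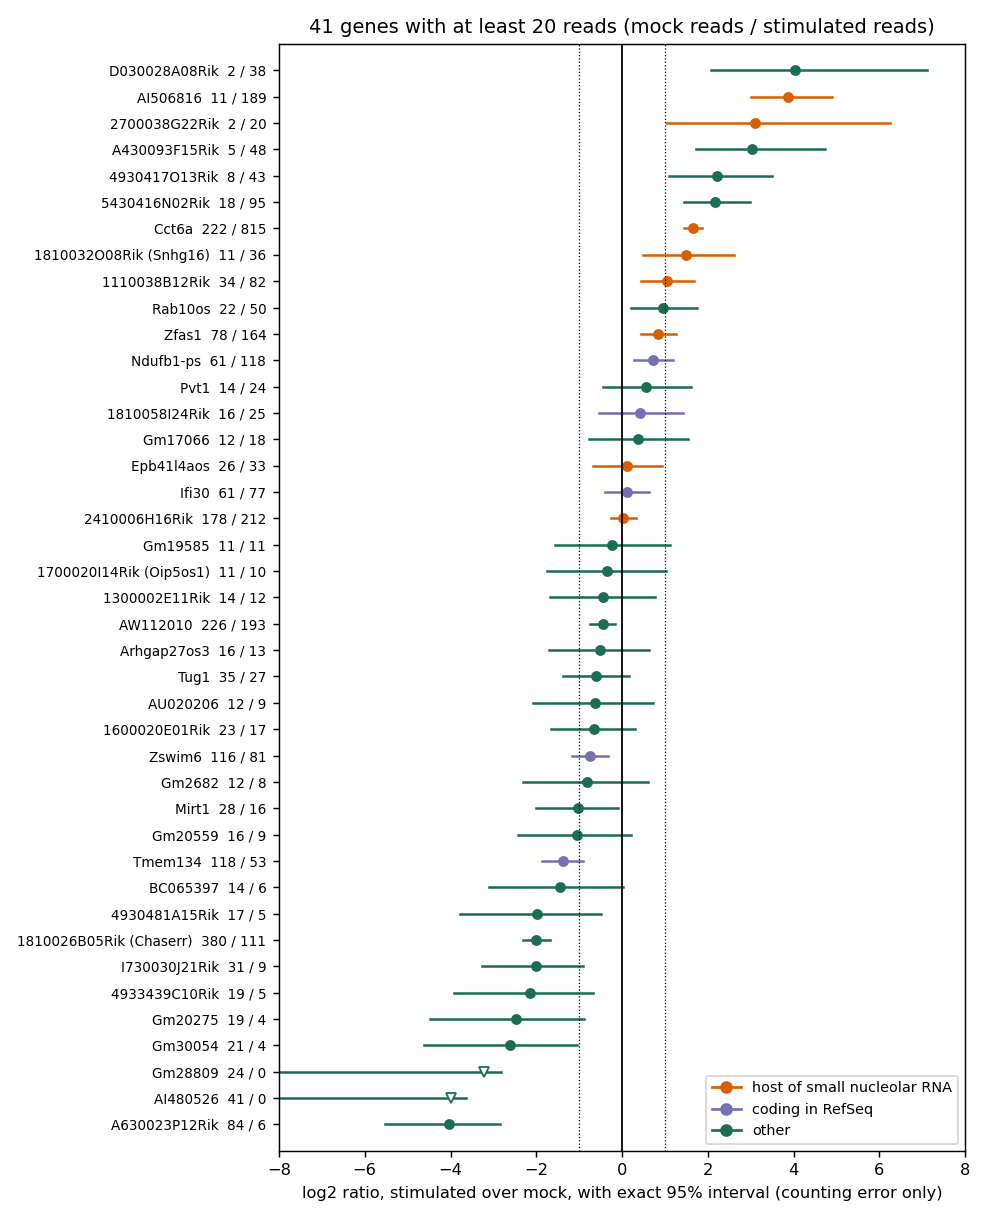
log2 ratio of stimulated over mock RPM with exact 95% intervals (x axis) for the 41 genes with at least 20 reads, each with its mock and stimulated reads, where triangles mark ratios taken at 3 reads in place of 0 and the intervals of these 2 genes run off the axis. Orange marks the 8 hosts of small nucleolar RNAs, all right of 0, purple the other genes that RefSeq calls coding and green the rest.

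Several well-read or well-known members did not pass the 2-fold limit. AW112010, an RNA induced by interferon in immune cells, was the most-read of these, with 226 and 193 reads and a ratio of 0.730 (0.600 to 0.889). Zswim6, coding in RefSeq and host of a gene annotated as a microRNA, Gm22118, had 116 and 81 reads, 0.597 (0.444 to 0.800). Ndufb1-ps, which RefSeq calls Ndufb1, a subunit of respiratory complex I, had 61 and 118 reads, 1.65 (1.20 to 2.29). The interval of AW112010 excludes a 2-fold difference, and without its most-read junction its log2 ratio was -0.0067.

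Pvt1, which shares its locus with Myc, had 14 mock and 24 stimulated reads, a ratio of 1.47 (0.728 to 3.07). Myc itself, the growth regulator, had 23 and 624 reads, 23.2-fold (15.3 to 36.9). The intervals of these neighbours on the same strand do not overlap. Tug1, a nuclear RNA linked to Polycomb repression, had 35 and 27 reads, 0.660 (0.384 to 1.12), beside 79 and 353 for Morc2a, an ATPase used in gene silencing, which starts head to head with it.

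Non-coding genes with known roles were looked up by list, and the lists were drawn up with earlier results of these data known. Of the X inactivation and imprinting list 1 of 13 names was a member, Firre, an X-linked RNA of nuclear architecture, with 10 and 4 reads. The nuclear architecture list had 2 of 11, Tug1 and Firre, and the growth list 2 of 19, Pvt1 and 1700020I14Rik (Oip5os1, also known as Cyrano), which had 11 and 10 reads. Of 28 names on the immune-linked list 3 were members, and AI480526 alone was lower. Of 19 names on the microRNA host list 2 were members, and Mirt1, inside which the annotation places no microRNA, was lower. Of the 5 hosts of small nucleolar RNAs on the last list 3 were members, and no member on any list was higher. The hosts called higher, such as AI506816 and Cct6a, are not on that list. The lists hold few members, and of all genes with 20 reads 17.0% were higher and 25.1% lower. Genes with fewer than 2 introns in the annotation cannot be named by this method, so Malat1, Mir155hg, Mir17hg and Mir142hg have no value. That limit leaves out 3770 of 9808 annotated non-coding genes with 1 intron and 568 with none.

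Dleu2, the other member of the microRNA list, is shown with its products because 2 of them share a seed. It had 3 mock and 12 stimulated reads, too few for a call. It hosts miR-15a and miR-16, known to restrain the cell cycle. The mature sequences from RefSeq (GRCm38.p6) have the seed, bases 2 to 8, in capitals.
miR-15a-5p: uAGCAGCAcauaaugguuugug
miR-16-5p: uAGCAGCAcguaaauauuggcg

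Many members lie against a coding gene, and 28 of the 60 had one on the other strand, overlapping it or starting within 1000 bp head to head. Distances here and below are between annotated gene starts, and where the measured RNAs start was not determined. Of these 28, 18 had 20 reads, of which 4 were higher (22.2%) and 7 lower (38.9%), beside 17.0% and 25.1% of all genes. Values of both genes are given for 23 pairs, 12 head to head and 11 overlapping, and in 10 pairs both ratios lay on one side of 1. Gm11110 with Tnfsf9 is among the 10 only because 0 mock reads of Tnfsf9, beside 3 stimulated reads, were taken at 3. In 8 of the 23 pairs a gene had under 20 reads. Both genes were called in 5 pairs, 3 in the same direction and 2 in opposite ones. Sharing a locus thus came with like and with unlike differences.

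AI480526 starts 527 bp from Setd1b, a histone H3 lysine methyltransferase, and Setd1b was lower too, with 275 and 89 reads (ratio 0.277, interval 0.215 to 0.353). Cct6a starts 451 bp from Psph, the last enzyme of serine synthesis, which had 21 and 154 reads, 6.27-fold (3.96 to 10.4). Both genes of this pair were higher. Gm30054 and Fam149b were both lower, the latter with 58 and 31 reads.

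Both pairs with opposite directions belong to D030028A08Rik. Cdk5rap3, whose annotated start lies 226 bp from that of D030028A08Rik, head to head, had 74 and 32 reads, 0.370 (0.236 to 0.567). The transcription factor Sp2 had 75 and 40, 0.456 (0.303 to 0.678). The reads do not show that D030028A08Rik was transcribed from that annotated start. A member 16.3-fold higher thus lay beside 2 coding genes that were lower.

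Gm28809, unseen in the stimulated library, lies antisense to Cd9, a tetraspanin of the cell surface, and Cd9 had 124 and 206 reads, a ratio of 1.42 (1.13 to 1.79). Zfas1 starts 81 bp from Znfx1, a zinc finger protein of antiviral defence, which had 122 and 79 reads, 0.554 (0.412 to 0.741), on the other side of 1 from Zfas1. Rab10os had 22 and 50 reads, a ratio of 1.94 (1.16 to 3.37), and Rab10, the small GTPase it overlaps, 307 and 356, a ratio of 0.992 (0.849 to 1.16). Rab10os was called higher under the median of ratios, under the trimmed mean and without its most-read junction. Strand comes from the strand column of the deposited files, and how it was assigned is not given in the sources used here.

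**Figure D4:**
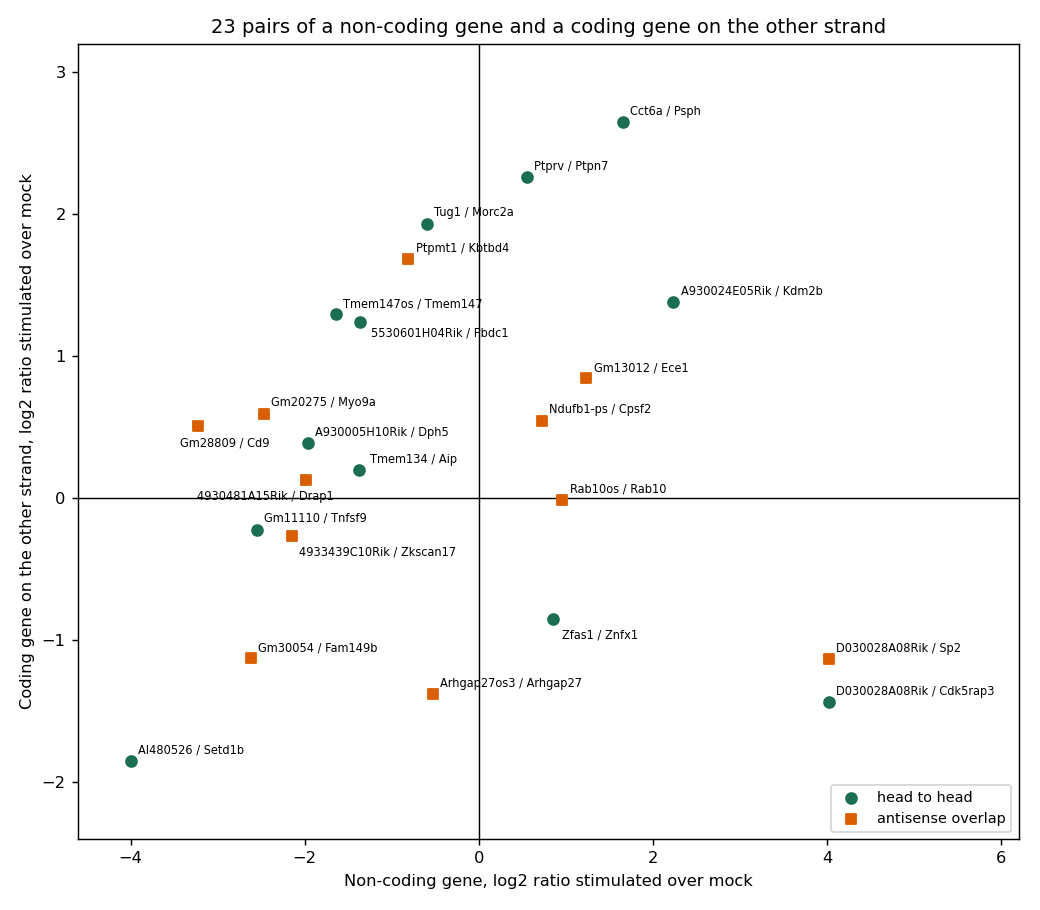
log2 ratio of the non-coding gene (x axis) and of the coding gene on the other strand (y axis), stimulated over mock, for 23 pairs, with circles for head to head starts and squares for antisense overlap. Points lie in every corner, AI480526 with Setd1b at lower left and Cct6a with Psph at upper right. A gene with 0 reads in a library is drawn at 3 reads there, which puts Tnfsf9, with 0 mock and 3 stimulated reads, below 0.

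Promoters of 49 members were found in RefSeq, 250 bases before to 50 after the start, and were searched on both strands for 4 motifs, none of which contains another. TGANTCA, the AP-1 motif, occurred in none of 9 higher and 1 of 9 lower members and in 7.81% of all 32851 promoters of that length. TGACGTCA, the CRE motif, occurred in 0 of 9 and 1 of 9, beside 1.79% of all. CACGTG, an E-box, occurred in 1 of 9 and 0 of 9, beside 7.15%. A loose NF-kB motif occurred in 6 of 9 and 6 of 9, beside 50.8%. A match is only a run of letters, and a window without one says nothing of the factor.

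The members held fewer junctions and reads than coding genes. The median was 4 named junctions a gene and 25 reads, beside 9 junctions and 112 reads for coding genes with 10 reads or more, and the median intron was 1404.5 bases beside 1245. Of 11 splice sites of members with more than 1 partner and 20 reads in each library, none had a junction whose share differed by 20 percentage points with separate intervals. Of the 20 called members, 15 had all named junctions on one side. A call rests on the sum of these same junctions, so this count is no support for the calls. The share among all called genes is not given here.

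19 members had 10 to 19 reads and were not called. At the limit, with exactly 10 reads, stood A930005H10Rik (10 mock and 0 stimulated), BC002059 (7 and 3), Ptpmt1 (6 and 4) and Trerf1 (9 and 1). Just under it, with 9 reads, stood 2900076A07Rik (8 and 1), B630019A10Rik (3 and 6), C230037L18Rik (8 and 1) and Gm32633 (9 and 0). Among these 19, Gm2762 had 0 and 11 reads over 5 junctions and Gm14230 2 and 16 over 3, while Gm14027 had 10 and 1. Ptprv had 7 and 12. By type, 2 of 14 lincRNA genes with 20 reads were higher and 3 lower, 0 of 8 antisense genes were higher and 4 lower, and 7 of 18 processed_transcript genes were higher and 4 lower, beside 17.0% higher and 25.1% lower of all genes. These are counts of few genes, and no difference between types was tested.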

How the data were processed

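Junction reads of 2 RNA sequencing libraries were used. The deposited files hold counts of reads per splice junction, unnormalized, and per the submitters' processing notes TopHat, Cufflinks and the genome build mm9 were used, with versions and settings not given in the sources used here. Junctions lost by the aligner change a gene's value, and reads inside exons are not counted. Mean insert sizes were 211.79 bp (mock) and 199.014 bp (stimulated), per the labels' protocols.

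The annotation was GENCODE M21 on GRCm38, and no position was converted between builds. A junction was named when its chromosome, strand and intron length equalled those of an annotated intron and its distance to at least 1 other junction equalled that in a transcript of the gene. Of 124183 junctions 76.0% were named, and 1371 that fitted more than 1 gene were left out. On simulated data of 1000 genes with several introns, 95.3% of true junctions were named, 99.99% of these with the right gene. That share leaves out random junctions that were named, and positions were shifted by a constant on each chromosome. It therefore does not measure the naming of members with few junctions.

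Ratios have exact binomial intervals (SciPy 1.17.1), and a library at 0 reads was set to 3. No p-value was computed, since 1 library a group gives no spread between samples. Other scalings, junction sums, read limits, folds, gene types and naming rules were tried. Near copies were sought with blastn 2.17.0+ at 95% identity over 200 bases, and 5 members had one. Named genes were those called, up to 12 in each direction, the 10 with most reads, those on role lists with a named junction, those at the read limit and coding neighbours. The members and lists were chosen with earlier results of these data known. The groups of small RNA hosts and of RefSeq coding genes, the junction splits, nearest coding genes and sequences were chosen after values were seen. 1 coding neighbour is not reported here.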

Additional observations from a re-analysis of the deposited data

How the results depend on the processing

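Against 9 higher and 11 lower genes, the lower count was 6 with only the most-read junction of each gene, 4 without it and 7 with junctions seen in both libraries. It was 7 with lincRNA, lncRNA and antisense types only and 3 with 50 reads for a call. The higher count was 2 with those types only, which 33 members have. Among all genes the lower count was 1793 in the main setting, 1204 with only the most-read junction, 1536 without it and 1369 with junctions in both libraries. These settings leave fewer reads or members, or ask for more reads, so fewer genes can be called. Shares of the genes still at the limit are not given here. Settings added after seeing the data gave 4 higher without hosts of small nucleolar RNAs and 15 with Snhg genes and Gas5. The median log2 ratio of -0.49 was -0.26 with the median of ratios, -0.25 with the trimmed mean, -0.28 with the most-read junction, -0.088 with junctions in both libraries, -0.23 with 2 other junctions needed for a name, -0.65 without the hosts and -0.23 with Snhg genes and Gas5. It turned to 0.19 without the most-read junction and to 0.42 for members with 50 reads. The read share was 0.135% and 0.143% with 2 other junctions and 0.172% and 0.149% without the most-read member. I730030J21Rik turned to 0.77 on the log2 scale without its most-read junction, but on only 1 mock and 2 stimulated reads. The cause of these differences was not tested. For the 26 genes that were called or among the 10 with most reads, 228 values under an alternative kept their side of the limit, 41 lost the call, 4 gained one, 2 moved and 1 reversed. Some of these outcomes were fixed in advance. With 10 reads for a call none of the 26 could change, and with 50 reads every called gene under that number lost its call. The tally is therefore no measure of how stable the calls are. The gained calls include Ifi30 in opposite directions. Its log2 ratio of 0.11 became 1.19 with only its most-read junction and -1.15 without it. Among the other members, Rab10os gained a call in 3 settings and 8 genes gained one with 10 reads for a call. No paired analysis was possible because each group has 1 library, and for the same reason none could be left out. Members with under 20 reads could show only large differences.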
